A study of Mus musculus with 67 samples.

Results

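The elements described here are the regions of open chromatin that the deposited annotation assigns to 6 genes for proneural basic helix-loop-helix (bHLH) transcription factors, Neurog1, Neurog2, Neurog3, Atoh1, Neurod1 and Neurod4. They were chosen by gene name alone, with no measured value. The annotation gives 67 elements to these genes, of which 60 have accessibility values, out of 111638 elements with values in all. Atoh1 has 28 of the 60, Neurod4 9, Neurod1 8, Neurog2 and Neurog3 6 each, and Neurog1 3.

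Accessibility was measured by CaTS-ATAC, in which cells are fixed, opened chromatin is tagged by a transposase, and cells are stained for intracellular transcription factors and sorted by flow cytometry before sequencing. The 67 samples were all derived from HM1, a line of mouse embryonic stem cells, differentiated in culture. Neuromesodermal progenitors (NMPs) were collected at day 3 with 0 nM SAG (n = 3), and neural progenitors (NPs) at days 4, 5 and 6, after retinoic acid and different concentrations of the Smoothened agonist SAG, which turns on Hedgehog signaling. The NP types were p0-1 from 0 and 10 nM SAG, p2 from 10 and 100 nM, and pMN and p3 both from 100 and 500 nM, which in the spinal cord lie in this order from dorsal to ventral. The NP groups of 1 type at 1 day held 6 samples of p0-1, p2 and pMN and 5 of p3 at day 4, then 6, 6, 5 and 5 at day 5 and 5, 6, 4 and 4 at day 6. NPs were sorted as SOX2-positive with combinations of PAX6, NKX6.1, OLIG2 and NKX2.2. All cells are in vitro equivalents of these domains from 1 line. The study describes its biological replicates as separate differentiations, here of the same line. Each NP group pools 2 SAG concentrations that share replicate numbers, and their samples were counted separately. At day 6 the 4 p3 and 4 pMN samples carry only the replicate numbers 2 and 3. If equal numbers mean 1 differentiation, p-values rest on fewer differentiations than samples and do not measure only the spread between differentiations.

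Proneural bHLH factors pair with E-proteins and bind the E-box, a short motif with the letters CANNTG. They start neuronal differentiation in progenitors, in part by inducing Delta ligands that activate Notch in neighbouring cells, and Id proteins hold them back by binding their partners. In the spinal cord, Neurog1 and Neurog2 act in progenitors of many dorsoventral domains, Neurog2 acting with OLIG2 in the motor neuron lineage. Neurog3 is best known as the factor of endocrine precursors in the pancreas and is also expressed in the ventral cord. Atoh1 specifies the most dorsal interneurons of the cord, and Neurod1 and Neurod4 act after the neurogenins in differentiating neurons.

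Elements are named here by their gene and by the distance in bp from its transcription start site (TSS) to the center of the element, negative upstream. The assignment is to the nearest TSS and does not show which gene an element acts on. This matters most at Atoh1, at mm10 chr6:64729125-64731245 on the plus strand, where the elements reach as far upstream as the one named Atoh1 -696910. At Neurog2, at chr3:127633135-127635631 on the plus strand, 2 of the 6 lie in introns of Alpk1. The other genes are Neurog1 at chr13:56250478-56252163 and Neurod1 at chr2:79452521-79456751, both on the minus strand, Neurog3 at chr10:62133090-62134763 on the plus strand and Neurod4 at chr10:130268152-130280240 on the minus strand.

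The sequences below are the central 300 bp of 6 elements on which the results turn most. They are given on the plus strand, from the RefSeq sequence of GRCm38, the assembly that mm10 is. Capitals mark matches on either strand to CANNTG, to GACCACC, a core of the GLI binding site, and to TAATTA, a core bound by homeodomain factors. Neurog2 -5902, whose p3 minus pMN difference at day 6 was the most negative of the members on the variance-stabilized (VST) scale, which is close to log2 at high counts, lies at chr3:127625333-127629136, and Neurog1 -7319 at chr13:56258093-56260906. Neurog3 +17034 lies at chr10:62149636-62150613, and Neurod1 -2679 at chr2:79458955-79459676, where the window overlaps an exon of the noncoding RNA gene Gm26755. Neurod4 -1886 lies at chr10:130281619-130282661, and Neurod4 +20584, chosen for display after its values were seen, at chr10:130259505-130259835. All 6 elements are annotated as intergenic.
Neurog2 -5902 (chr3:127627085-127627384): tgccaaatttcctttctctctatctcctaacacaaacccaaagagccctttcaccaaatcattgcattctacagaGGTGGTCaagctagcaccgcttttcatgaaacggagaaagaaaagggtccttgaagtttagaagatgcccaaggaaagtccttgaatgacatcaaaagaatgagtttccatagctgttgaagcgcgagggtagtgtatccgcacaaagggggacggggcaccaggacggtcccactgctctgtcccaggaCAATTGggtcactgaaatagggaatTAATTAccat
Neurog1 -7319 (chr13:56259350-56259649): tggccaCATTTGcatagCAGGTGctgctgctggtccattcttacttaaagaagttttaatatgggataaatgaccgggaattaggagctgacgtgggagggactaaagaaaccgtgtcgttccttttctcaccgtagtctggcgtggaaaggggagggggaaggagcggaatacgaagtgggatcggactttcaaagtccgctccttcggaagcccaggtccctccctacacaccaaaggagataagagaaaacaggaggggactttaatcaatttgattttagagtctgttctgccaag
Neurog3 +17034 (chr10:62149975-62150274): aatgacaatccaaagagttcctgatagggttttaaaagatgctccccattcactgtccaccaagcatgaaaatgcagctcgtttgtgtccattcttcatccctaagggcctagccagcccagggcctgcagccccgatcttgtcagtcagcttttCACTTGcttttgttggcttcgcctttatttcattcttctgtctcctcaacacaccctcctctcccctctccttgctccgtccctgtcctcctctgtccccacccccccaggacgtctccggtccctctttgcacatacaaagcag
Neurod1 -2679 (chr2:79459166-79459465): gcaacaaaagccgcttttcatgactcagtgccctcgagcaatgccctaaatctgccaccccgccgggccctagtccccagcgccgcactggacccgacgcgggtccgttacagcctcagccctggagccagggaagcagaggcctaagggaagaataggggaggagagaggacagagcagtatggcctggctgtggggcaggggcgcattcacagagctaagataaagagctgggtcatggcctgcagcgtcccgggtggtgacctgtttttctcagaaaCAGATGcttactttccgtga
Neurod4 -1886 (chr10:130281991-130282290): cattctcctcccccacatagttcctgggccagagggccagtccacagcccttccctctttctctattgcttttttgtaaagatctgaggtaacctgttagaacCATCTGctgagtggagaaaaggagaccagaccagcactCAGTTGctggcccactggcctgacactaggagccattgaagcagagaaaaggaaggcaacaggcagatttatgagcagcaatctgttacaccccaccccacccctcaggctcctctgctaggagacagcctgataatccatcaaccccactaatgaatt
Neurod4 +20584 (chr10:130259521-130259820): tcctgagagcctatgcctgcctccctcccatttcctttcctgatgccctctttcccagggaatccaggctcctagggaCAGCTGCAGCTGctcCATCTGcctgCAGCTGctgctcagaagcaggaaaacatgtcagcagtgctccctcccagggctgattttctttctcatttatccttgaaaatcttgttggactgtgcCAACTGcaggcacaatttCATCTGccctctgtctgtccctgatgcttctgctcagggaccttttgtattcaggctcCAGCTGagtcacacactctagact

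The window of Neurog2 -5902 held 1 match to each of the 3 motifs, and it was the only one of the 60 members with a match to GACCACC, a motif in 3.11% of the windows of all elements. TAATTA had a match in 2 of the 60 windows and in 7.85% of all windows. The window of Neurod4 +20584 was of another kind, with 7 matches to CANNTG, of which 4 were CAGCTG and 2 were CAGATG on 1 strand or the other. Only 59 of 111638 windows, 0.0528%, had as many as 6 matches to these 2 E-boxes together. Over the 60 windows, 52 had a CANNTG match, 86.7% against 79.8% of all windows, and 19 had CAGATG, 31.7% against 25.7%. CAGCTG was in 11, 18.3% against 21.1%, which includes no window of Neurog1, Neurog2 or Neurod1. A match is a description of the letters and does not show that a factor binds.

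The deposited values are on a log2 scale after the authors' variance-stabilizing transformation (VST), and a difference of 1 is close to a 2-fold change only where counts are high. On this scale 10, 100 and 1000 normalized counts are 4.39, 6.82 and 9.98. Levels below are normalized read counts per element recovered by inverting the VST, given as mean ± SD over samples, and differences are on the VST scale with the SE of the limma fit. Elements differ in width, so that levels are compared between samples and not between elements. An element was called in a comparison where the adjusted p was under 0.01 and the difference was over 1 in size, over all 111638 elements. Depth was between 9298160 and 29985325 reads in elements per sample. By the element nearest each TSS, markers separated NMPs from NPs, p0-1 from the other NPs at day 6, and pMN from p3. The summed level of the NMP genes T, Nkx1-2 and Cdx2 was 5610 to 7192 in NMPs and at most 2519 in any NP sample. Dbx1 and Dbx2 summed to 2546 to 3255 in p0-1 at day 6 and to at most 1405 in the other NPs of that day, and the Olig2 element was at 2298 to 2361 in pMN and 904 to 1131 in p3. The pMN list of 2 genes summed to 4828 to 5032 in pMN and 3414 to 3606 in p3 at day 6. Cells sorted as p3 were OLIG2-negative, so the Olig2 element is not independent of these labels. At day 4 the sums of Dbx1 and Dbx2 overlapped, at 1172 to 2227 in p0-1 and 1102 to 1287 in pMN. The p2 list, Irx3 and Nkx6-1, did not set p2 apart, at 4253 to 5653 in p2 and 4358 to 5551 in pMN at day 6. The p3 label was not separated from pMN by the 1 p3 marker element found, that of Nkx2-9, at 1619 to 2137 in p3 and 1786 to 2305 in pMN at day 6. In bulk samples fewer cells with an open element and less opening per cell cannot be told apart.

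**Figure D1:**
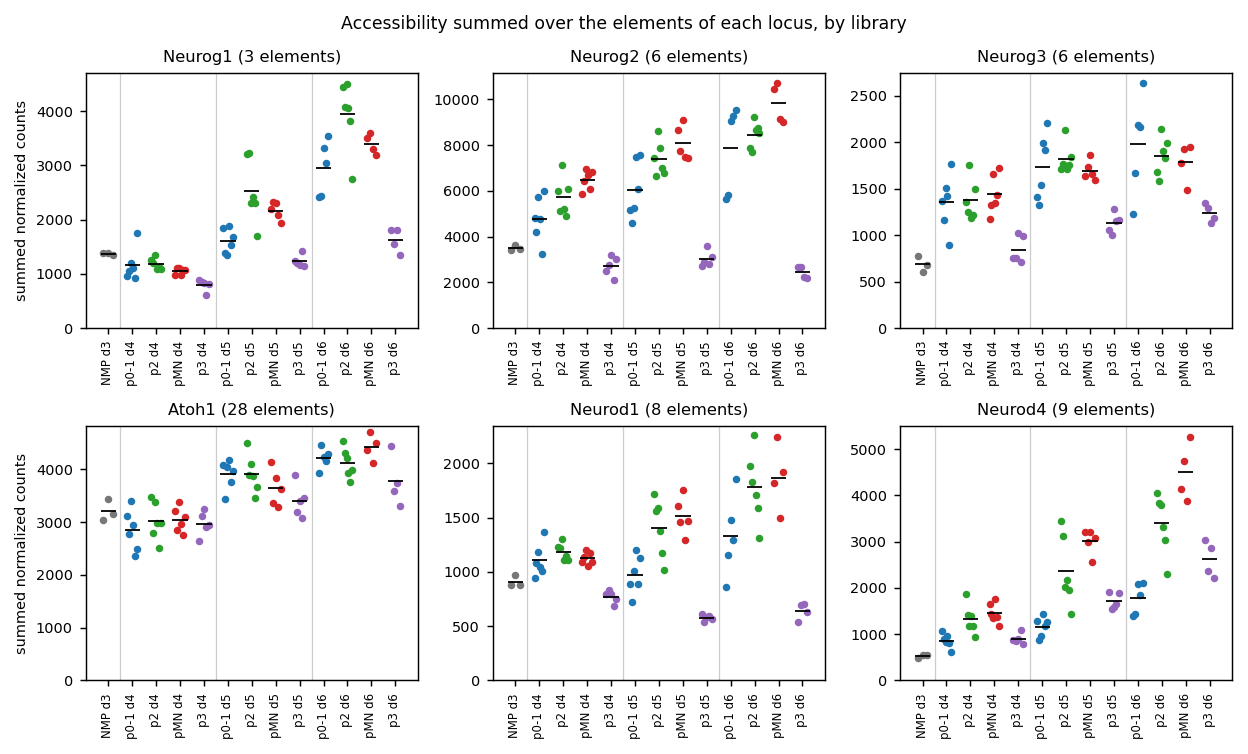
Summed normalized read counts of all elements of each of the 6 genes, 1 panel per gene, with the cell type and day on the x axis. Each point is 1 sample and each black bar the mean of its group. At day 6 the Neurog2 locus is at 2207 to 2683 in p3 and at 5631 or more in every sample of the other NPs.

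Summed over its 6 elements, Neurog2 was lower in p3 than in the other NPs at day 6. It was at 3494 ± 124 in NMPs (n = 3) and at day 6 at 7859 ± 1951 in p0-1 (n = 5), 8445 ± 579 in p2 (n = 6) and 9834 ± 881 in pMN (n = 4), against 2443 ± 265 in p3 (n = 4). The p3 samples were below all others at that day, and the 3 other types overlapped. Neurod1 had the same gap, with sums of 1327 ± 369, 1778 ± 325 and 1867 ± 307 in p0-1, p2 and pMN and 638 ± 76.3 in p3. Neurod4 was instead lowest in p0-1, at 1772 ± 341, and at 2617 ± 391 in p3, 3393 ± 650.2 in p2 and 4511 ± 626 in pMN. The sum of the 28 Atoh1 elements was nearly flat, between 3771 ± 477 in p3 and 4426 ± 247 in pMN. Its single elements were not flat, since 21 of the 28 had condition means that ranged over more than 2 on the VST scale. Such a range was found in 42 of the 60 members, 70%, and in 61.7% of all elements, with 6 of 6 at Neurog2, 3 of 3 at Neurog1, 7 of 9 at Neurod4, 3 of 8 at Neurod1 and 2 of 6 at Neurog3.

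The comparison of p3 with pMN at day 6 asks how the most ventral type differs from its neighbour at the same SAG concentrations. Of the 60 members, 24 were less accessible in p3, 40.0%, against 13.6% of all elements, and 2 were more accessible, against 11.8% of all. The median difference was -0.64 over the members and -0.01 over all elements. The lower members were 5 of 6 at Neurog2, 4 of 8 at Neurod1, 11 of 28 at Atoh1, 2 of 9 at Neurod4 and 1 each at Neurog1 and Neurog3, and both higher ones were at Atoh1. The groups did not overlap in 39 of the 60, 65.0%, against 42.4% of all elements. With each SAG concentration averaged first, 16 members were lower and 1 higher, against 9.19% and 7.14% of all elements.

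Neurog2 -5902 had the most negative difference among the members on the VST scale, though not the largest fold of mean normalized counts. The pMN samples were at 4623 and 4375 at 100 nM SAG and at 3725 and 3523 at 500 nM, and the p3 samples at 726 and 549, and at 505 and 372. Every p3 sample was thus far below every pMN sample at both concentrations, and the mean was 7.55-fold lower. The difference was -2.92 (SE 0.16, adjusted p = 8.85e-07). At the TSS, Neurog2 +486, chr3:127631844-127635400, was at 3411 to 4022 in pMN and 964 to 1117 in p3, a difference of -1.81 (SE 0.07, adjusted p = 4.81e-07). Neurog2 +73326, in intron 3 of Alpk1, was at 1402 to 1671 in pMN and 405 to 654 in p3, with a difference of -1.47 (SE 0.13, adjusted p = 6.4e-06). The exception was Neurog2 +8310, at 474 ± 39.8 in pMN and 302 ± 20.6 in p3, whose difference of -0.63 (SE 0.11) was too small to be called.

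**Figure D2:**
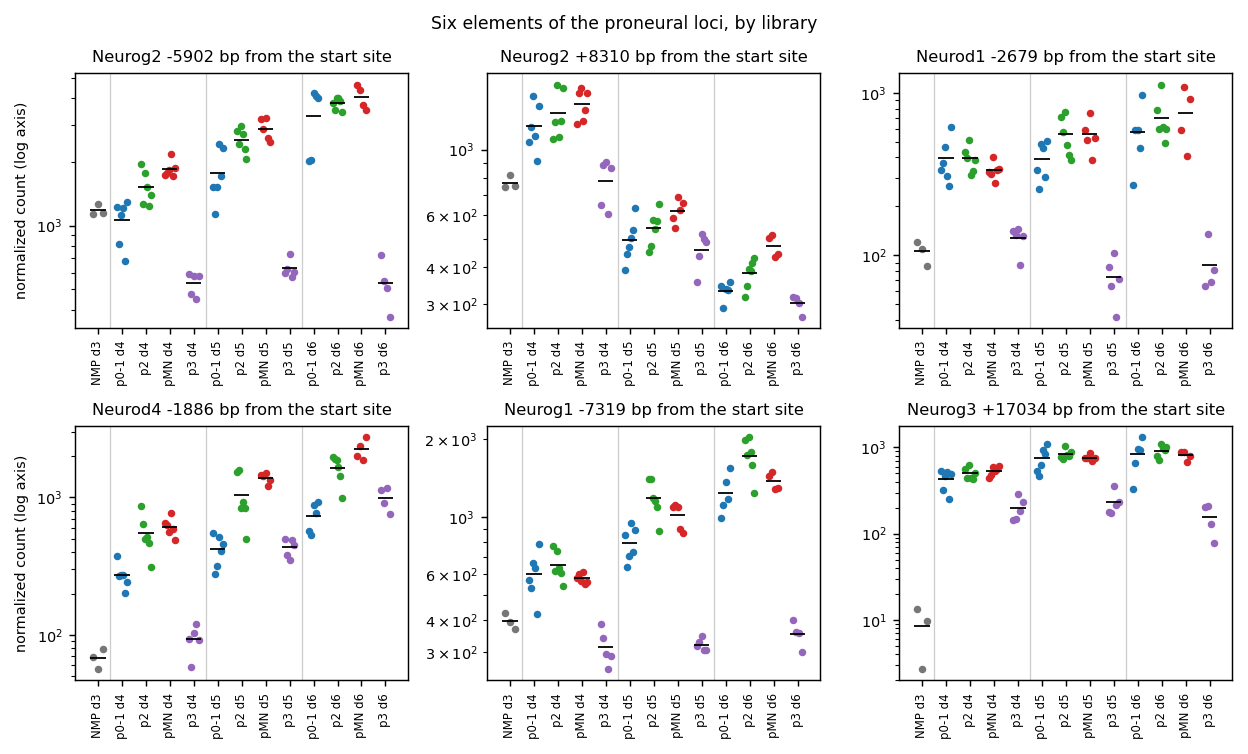
Normalized read counts of 6 elements in each sample, on a log axis, with the cell type and day on the x axis. Points are samples and bars are group means. In each panel the p3 samples of day 6 lie below all pMN samples of that day, and Neurog2 +8310 also falls in every NP type from day 4 to day 6.

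Neurog1, Neurod1 and Neurog3 each held an element upstream or downstream of the gene that was low in p3. Neurog1 -7319 was at 1442, 1496, 1279.6 and 1299.7 in the pMN samples and at 397, 359, 355 and 299 in the p3 samples. The difference was -1.93 (SE 0.10, adjusted p = 7.72e-07), with no overlap. The element over the Neurog1 exon, Neurog1 +871 at chr13:56249799-56252820, had 1963 ± 86.4 in pMN and 1248 ± 198 in p3 and was not called (-0.66, SE 0.10). Neurod1 -2679 was at 594, 1084, 406 and 920.2 in pMN and at 64.3, 135, 68.1 and 81.6 in p3. The pMN samples spread widely, but the lowest of them was still about 3 times the highest p3 sample, and the difference was -2.89 (SE 0.30, adjusted p = 1.49e-05). The Neurod1 promoter, Neurod1 -209 at chr2:79456443-79457248, was at 647 to 849.8 in pMN and 219 to 336 in p3, -1.51 (SE 0.15, adjusted p = 1.03e-05). Neurog3 +17034 was at 878, 886, 684 and 799.9 in pMN and at 204, 209.5, 129 and 78.7 in p3, -2.38 (SE 0.25, adjusted p = 1.71e-05). Its neighbour Neurog3 +13163, at chr10:62145767-62146740, was as high in p3, 798 ± 58.2, as in pMN, 788 ± 145, with a difference of 0.03 (SE 0.12, adjusted p = 0.867). Neurog3 +255, over the gene, went the other way, at 228 ± 12.7 in p3 and 136 ± 13.7 in pMN, without overlap. Its difference of 0.69 (SE 0.13, adjusted p = 0.00103) was too small to be called. Of the 6 Neurog3 elements, 4 had positive and 2 negative differences.

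At Neurod4 and Atoh1, too, the decrease was not shared by the whole locus. Neurod4 -1886 was at 2005, 2371, 1864 and 2748 in pMN and at 1126, 908, 1172 and 761 in p3, which did not overlap (-1.17, SE 0.15, adjusted p = 5.92e-05). The Neurod4 promoter, Neurod4 -15 at chr10:130279908-130280631, was at 270 ± 38.7 in p3 and 347 ± 29.4 in pMN (-0.35, SE 0.13, adjusted p = 0.0474). Neurod4 -13611 was at 522 ± 99.1 in p3 and 445 ± 64.7 in pMN. Neither of these passed the call. The Atoh1 promoter, Atoh1 -145 at chr6:64727673-64730288, was at 823 ± 77.9 in p3 and 904 ± 45.2 in pMN, a difference of -0.14 (SE 0.09, adjusted p = 0.241). Low Atoh1 elements included Atoh1 -130709, at 89.0 ± 15.6 in p3 and 270 ± 44.1 in pMN (-1.48, SE 0.17, adjusted p = 3.31e-05). The largest increase among the members on the VST scale was that of Atoh1 -238400. It was at 29.7, 42.7, 48.5 and 68.9 in p3 and between 4.69 and 12.8 in pMN, so that all p3 samples were higher, but on few reads (1.67, SE 0.23, adjusted p = 0.000111). The other higher element was Atoh1 -301315, at 48.1 ± 16.3 and 13.1 ± 3.71.

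**Figure D3:**
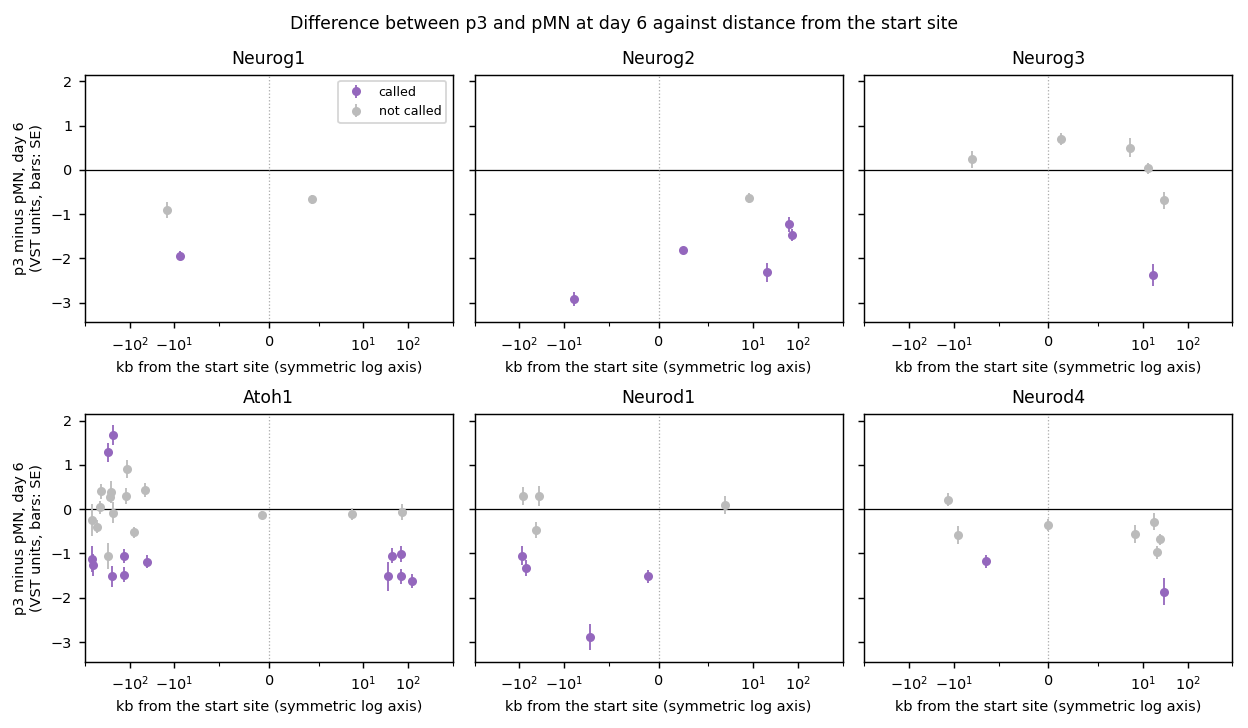
Difference between p3 and pMN at day 6 on the VST scale (y axis, with SE) for the 60 members against their distance from the TSS in kb (x axis, symmetric log scale), 1 panel per gene. Purple points were called and grey ones were not. The lowest points are Neurog2 -5902 at -2.92 and Neurod1 -2679 at -2.89.

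SAG concentration was balanced in this comparison, and the fits within 1 concentration, added after the values were seen, gave the same direction at the leading elements. With 2 samples per group, 14 members were called at 100 nM, 13 of them lower, where 8.06% of all elements were lower. At 500 nM there were 10, 9 of them lower, where 5.17% of all elements were lower. Neurog2 -5902 differed by -2.81 at 100 nM and -3.03 at 500 nM, Neurod1 -2679 by -2.94 and -2.84, and Neurog1 -7319 by -1.92 and -1.94. The sums of the floor plate and postmitotic neuron lists also differed between these types. The floor plate genes Shh, Foxa1 and Foxa2 summed to 2182 to 3481 in p3 and 771 to 973 in pMN. They summed to 2261 to 2851 in NMPs, so a high sum is not specific to floor plate. The paper reports Foxa2 expression in p3 cells themselves, and little expression of floor plate markers in its spinal cord cultures. The postmitotic neuron list of Tubb3, Elavl3, Elavl4, Dcx, Stmn2, Isl1 and Mnx1, all 7 found, summed to 4971 to 5965 in p3 and 6491 to 7373 in pMN. It summed to 5601 to 6605 in NMPs, so a high sum is not specific to neurons. The list also holds Isl1 and Mnx1, genes of motor neurons, which pMN cells generate. Its sum without them is not given here. The part of these marker genes in the differences at the proneural loci was not tested.

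Fewer members were called between p3 and pMN at day 4. At that day 14 members were lower in p3, 23.3%, against 5.40% of all elements, and 0 were higher, against 2.19% of all. They were 4 at Atoh1, 3 each at Neurog2 and Neurod4 and 2 each at Neurog3 and Neurod1. Neurod4 -1886 had the most negative VST difference, at 647, 628 and 563 (100 nM) and 765, 586 and 493 (500 nM) in pMN, and at 92.9, 58.8 and 104, and 120.5 and 92.2, in p3. The lowest pMN sample was over 4 times the highest p3 sample, and the difference was -2.58 (SE 0.15, adjusted p = 4.14e-09). Neurog2 -5902 was at 1718 to 2184 in pMN and 452 to 589 in p3 at day 4, -1.77 (SE 0.09, adjusted p = 1.6e-09). Within 100 nM 13 members were lower, against 4.10% of all elements, and within 500 nM 12, against 4.14%. The sum of the floor plate genes was then 1699 to 2427 in p3, against 1001 to 1894 in pMN.

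The change from day 4 to day 6 was therefore tested for a difference between p3 and pMN. In 6 members the change was higher in p3, 10.0%, against 7.61% of all elements, and in 6 it was lower, against 5.99% of all. The same samples enter both comparisons of p3 with pMN, so these are not independent of them. Neurog2 -5902 rose in pMN, from 1851 ± 174 to 4061 ± 522, and was at 535 ± 64.7 and 538 ± 146 in p3, an interaction of -1.15 (SE 0.18, adjusted p = 9.11e-05). Neurod1 -2679 gave -1.57 (SE 0.31, adjusted p = 0.00062) and Neurog1 -7319 gave -1.06 (SE 0.15, adjusted p = 2.14e-05). Neurod4 -1886 went the other way. It rose from 93.6 ± 22.6 to 992 ± 192 in p3 and from 614 ± 91.8 to 2247 ± 396 in pMN. On the VST scale, though not in counts, the rise was larger in p3, from a lower start. The limma interaction was 1.40 (SE 0.23, adjusted p = 8.84e-05). Neurog3 +13163 likewise rose from 252 ± 71.7 to 798 ± 58.2 in p3 and was at 528 ± 74.0 and 788 ± 145 in pMN (1.09, SE 0.22, adjusted p = 0.000859). The 12 calls together were 7, 6 and 5 without replicate 1, 2 and 3, and 4 with each SAG concentration averaged first. Of these, 2, 1, 3 and 1 were higher in p3, against 5.24%, 5.28%, 5.03% and 2.12% of all elements. The other 5, 5, 2 and 3 were lower, against 5.42%, 4.92%, 2.24% and 1.94% of all elements.

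**Figure D4:**
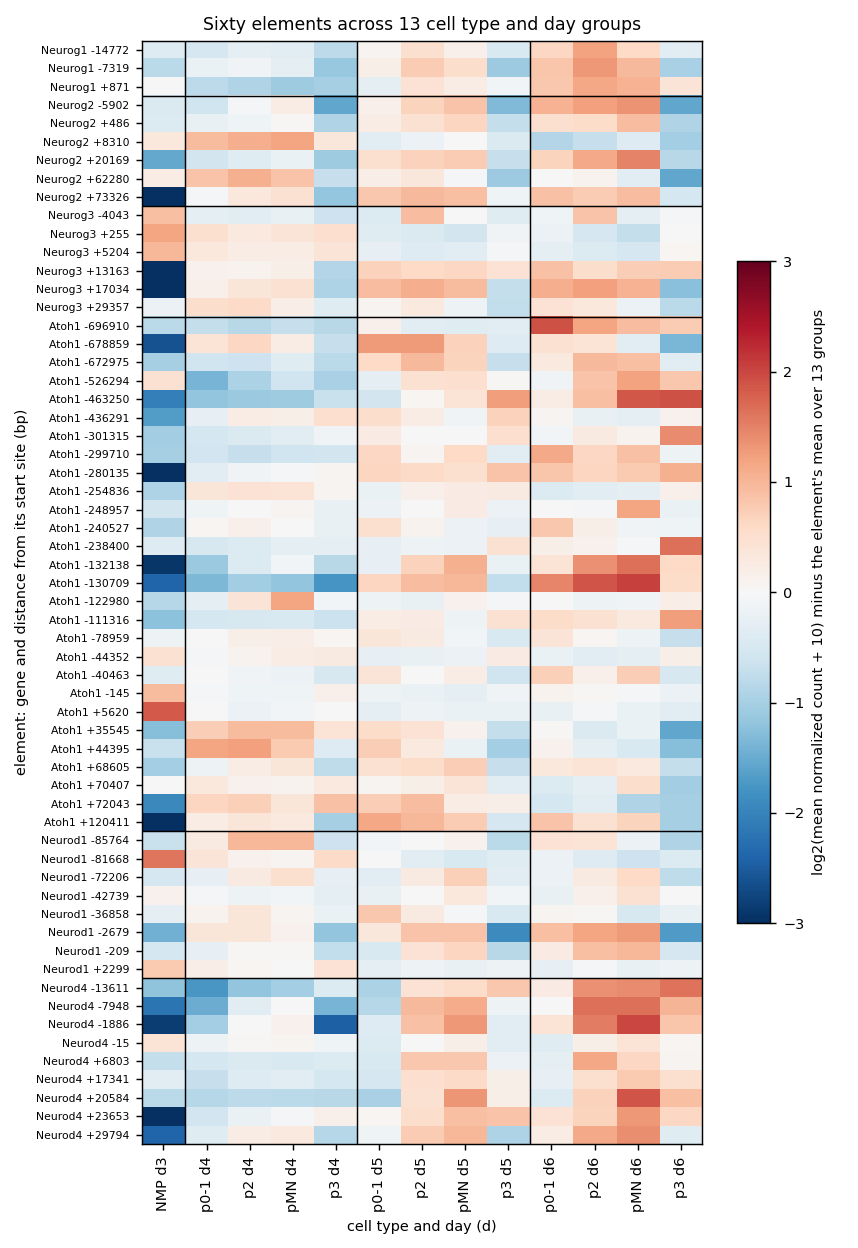
Mean accessibility of the 60 elements (rows, by gene and position) in the 13 groups of cell type and day (columns), as log2 of the mean normalized count plus 10 minus the element's mean over groups. Many distal elements are lowest in NMPs, and at day 6 the Neurog2 elements other than +8310 are much lower in p3 than in pMN.

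In each NP type more members opened than closed between day 4 and day 6. The sum of the 7 postmitotic neuron genes, which is not specific to neurons, was also higher at day 6, with overlapping ranges in p0-1. At day 4 it was 3066 to 5260, 3414 to 4182, 3607 to 4298 and 3612 to 4508 in p0-1, p2, pMN and p3. At day 6 it was 3850 to 5376, 4379 to 7556, 6491 to 7373 and 4971 to 5965, and its part in the change was not tested. In p0-1 18 members were higher and 3 lower, against 13.3% and 8.17% of all elements. In p2 there were 18 and 4, against 16.1% and 10.0%, in pMN 21 and 8, against 15.8% and 9.74%, and in p3 16 and 6, against 16.6% and 9.20%. As shares of the 60 the higher ones were 30.0%, 30.0%, 35.0% and 26.7%, and the lower ones 5.00%, 6.67%, 13.3% and 10.0%. Neurod4 had 4, 5, 8 and 5 of its 9 elements higher in p0-1, p2, pMN and p3 and 0 lower. Its element at -1886 rose by 1.39 (SE 0.18), 1.58 (SE 0.20), 1.85 (SE 0.12) and 3.25 (SE 0.19), with an adjusted p of 2.65e-08 in p3. Neurod4 -13611 rose by 1.87, 2.55, 2.40 and 2.03 in the same order.

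Neurog1 opened over its body as well as upstream. Neurog1 +871 was at 542 ± 204, 501 ± 60.7, 449 ± 73.1 and 472 ± 78.2 in p0-1, p2, pMN and p3 at day 4 and at 1651 ± 303, 2116 ± 343, 1963 ± 86.4 and 1248 ± 198 at day 6. It rose in all 4 types, by 1.63, 2.04, 2.11 and 1.38, while Neurog1 -7319 rose by 1.04, 1.38 and 1.23 in the first 3 and was at 313 ± 49.7 and 353 ± 40.5 in p3, with a difference of 0.17 (SE 0.14, adjusted p = 0.322). Neurog2 -5902 likewise rose by 1.58, 1.32 and 1.12 in the first 3, and differed by -0.02 (SE 0.16, adjusted p = 0.915) in p3.

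The Neurog2 locus also held elements that fell. Neurog2 +62280 went from 108 ± 37.4 to 56.0 ± 20.5 in p0-1 and from 126 ± 26.9 to 60.2 ± 8.85 in p2. It went from 108 ± 25.8 to 42.6 ± 4.89 in pMN and from 30.6 ± 5.58 to 12.2 ± 2.35 in p3. Neurog2 +8310, at chr3:127639624-127643269 downstream of the gene, fell in all 4 types from day 4 to day 6. It went from 1200 ± 226 to 334 ± 24.8 in p0-1, from 1325 ± 251 to 382 ± 42.4 in p2, from 1423 ± 171 to 474 ± 39.8 in pMN and from 783 ± 143 to 302 ± 20.6 in p3. The groups did not overlap in any of these, and the differences were -1.79 (SE 0.14, adjusted p = 1.42e-07), -1.75 (SE 0.11, adjusted p = 1.9e-09), -1.56 (SE 0.10, adjusted p = 6.86e-10) and -1.32 (SE 0.14, adjusted p = 3.46e-06). Day 5 was between, at 496 ± 83.4, 545 ± 74.0, 620 ± 58.8 and 459 ± 64.2. Over the 25 condition means its correlation with the TSS element was -0.14, where that of Neurog2 -5902 was 0.98 (Pearson's r, given as a description, over conditions that share days and the depth scaling).

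At Atoh1 distal elements changed with time, and the promoter was not called. Atoh1 -145 was at 914 ± 256, 848 ± 101, 850 ± 97.9 and 1045 ± 155 in p0-1, p2, pMN and p3 at day 4 and at 1002 ± 76.9, 951 ± 156, 904 ± 45.2 and 823 ± 77.9 at day 6, and its difference was below the call in all 4 types. Atoh1 -130709 had 16.4 ± 6.33, 23.0 ± 11.0, 19.6 ± 2.65 and 9.72 ± 2.90 at day 4 and 176 ± 34.8, 239 ± 58.4, 270 ± 44.1 and 89.0 ± 15.6 at day 6. It rose by 2.78, 2.88, 3.17 and 2.30. Atoh1 -696910 was at or below 5.14 in every NP sample at day 4 and at 59.7 ± 22.0, 32.4 ± 6.55, 25.3 ± 11.7 and 21.7 ± 14.9 at day 6, called as higher in all 4 types. The largest decrease of a member in p3 on the VST scale was that of Atoh1 +35545, chr6:64764066-64765275, from 55.2 ± 15.3 to 6.59 ± 7.09 (-2.12, SE 0.30, adjusted p = 5.15e-05).

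Comparing the NPs of day 4 with their precursors asks which elements open as cells turn neural. Each of the 4 comparisons used the same 3 NMP samples. In p0-1, 22 members were higher and 5 lower, against 23.3% and 18.6% of all elements, so the shares were 36.7% and 8.33%. In p2 there were 26 and 5, or 43.3% and 8.33%, against 28.0% and 20.2%, and in pMN 26 and 6, or 43.3% and 10.0%, against 28.1% and 20.4%. In p3 there were 16 and 6, or 26.7% and 10.0%, against 25.3% and 19.9%. The higher ones were mostly at Atoh1, with 13, 16, 16 and 11 of 28. Atoh1 -280135 had the largest VST increase in all 4, at 4.85, 4.05 and 8.62 in the NMP samples and 138 to 797, 475 to 833, 503 to 776 and 331 to 956 in p0-1, p2, pMN and p3 at day 4. It was thus almost closed in NMPs and open in every NP sample, with differences of 4.98 (SE 0.41), 5.35 (SE 0.17), 5.40 (SE 0.17) and 5.47 (SE 0.27) and the largest adjusted p 1.89e-07.

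Several other distal elements opened from a similarly low start. Neurog3 +13163 was at 7.50 ± 5.39 in NMPs and 515 ± 125, 508 ± 101, 528 ± 74.0 and 252 ± 71.7 in the 4 NP types, and Neurog3 +17034 at 8.57 ± 5.41 and then 431 ± 117, 501 ± 78.4, 536 ± 63.1 and 199 ± 60.0. Neurog2 +73326 was at 35.8 ± 11.1 and then 764 ± 243, 989 ± 186, 1091 ± 119 and 348 ± 100.2, and Neurod4 +23653, at chr10:130256152-130257051, at 3.50 ± 1.64 and then 227 ± 85.3, 296 ± 58.6, 325 ± 50.9 and 377 ± 59.0. All 4 elements were called in all 4 comparisons. Neurod1 -2679 was at 106 ± 17.8 in NMPs and rose in p0-1, p2 and pMN, to 395 ± 129, 395 ± 71.8 and 333 ± 40.4. In p3 it was at 127 ± 23.2, a difference from NMPs of 0.24 (SE 0.19, adjusted p = 0.266). Neurod4 -1886 had the same pattern, at 68.1 ± 11.0 in NMPs and 93.6 ± 22.6 in p3 (0.38, SE 0.21, adjusted p = 0.113), and was called in the other 3 types.

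Some elements at or near the genes were already open in NMPs. Atoh1 -145 fell from 1823 ± 124 in NMPs by 1.02, 1.10 and 1.10 in p0-1, p2 and pMN, and in p3 the difference of -0.81 was not called. Atoh1 +5620, at chr6:64733995-64735495, fell from 755 ± 80.0 to 205 ± 83.3, 179 ± 38.8, 191 ± 37.4 and 202 ± 31.4, the largest decrease of a member on the VST scale in each of the 4 comparisons. Neurog2 -5902 fell in p3, from 1185 ± 68.7 to 535 ± 64.7 (-1.13, SE 0.12, adjusted p = 6.27e-07), and was not called in the others, with -0.20 (SE 0.20), 0.34 (SE 0.12) and 0.63 (SE 0.09) in p0-1, p2 and pMN. Neurog3 +255, over the Neurog3 gene, was at 542 ± 58.4 in NMPs and 327 ± 125, 288 ± 60.1, 306 ± 79.4 and 335 ± 59.0 at day 4, below the call in all 4. The summed level of the postmitotic neuron list was also higher in NMPs, 5601 to 6605, than in any NP sample of day 4, at most 5260.

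**Figure D5:**
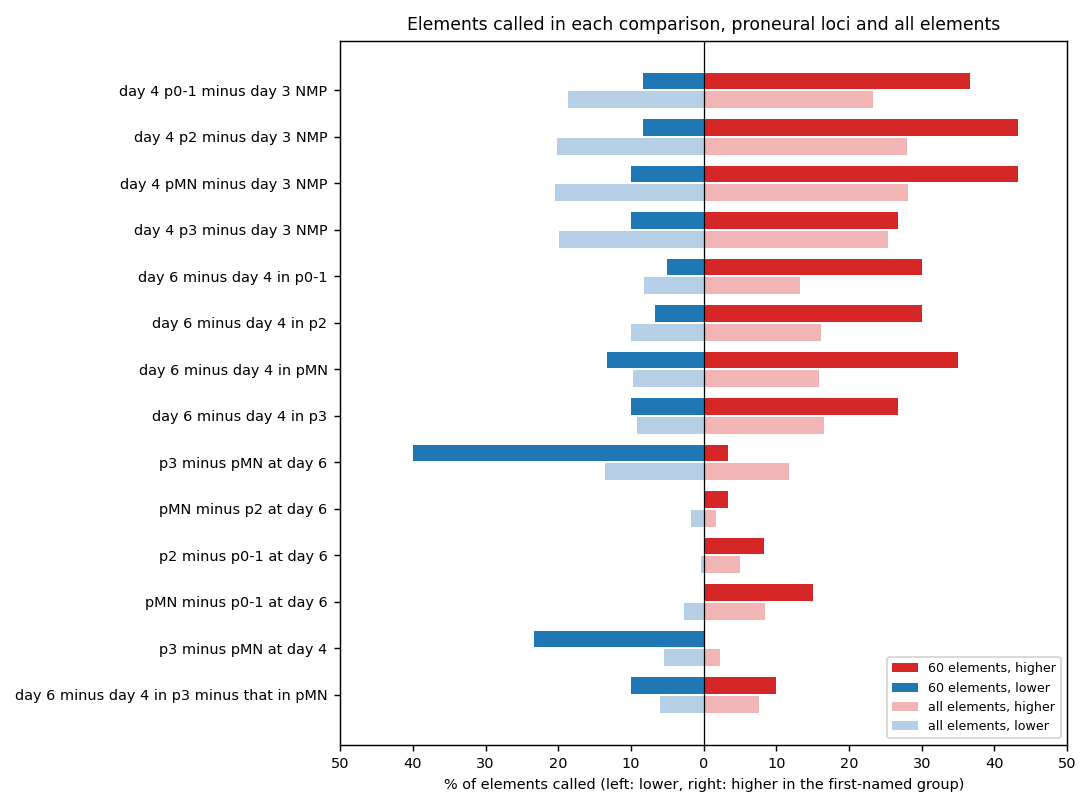
Share of elements called higher and lower (x axis, percent) in 14 comparisons (y axis), for the 60 members and for all 111638 elements. The widest gap is for elements lower in p3 than in pMN at day 6, 40.0% against 13.6%.

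The other types differed less at day 6, and the differences lay at Neurod4 and Atoh1. These comparisons share the p0-1, p2 or pMN samples with each other. From p0-1 to p2, 5 members were higher, 8.33% of the 60, against 4.95% of all elements, and 0 were lower, against 0.347% of all. All 5 were at Neurod4. Neurod4 -1886 was at 572 and 535 (0 nM) and 885, 765 and 930.4 (10 nM) in p0-1, and at 1978, 1898 and 1858 (10 nM) and 1662, 1433 and 989.9 (100 nM) in p2. The p2 samples were all higher, if only just for the lowest of them, and the difference was 1.13 (SE 0.19, adjusted p = 0.0013). Neurod4 -7948, at chr10:130287662-130288743, was at 39.7 to 101 in p0-1 and 103 to 343 in p2, the largest difference of a member on the VST scale (1.58, SE 0.27, adjusted p = 0.00176). By limma the count was 0 without replicate 1, against 0.575% of all elements higher, and 0 without replicate 2, where 1 of all elements was called, with 20 and 13 members at an unadjusted p under 0.05. It was 8 without replicate 3, against 6.86% of all. Within 10 nM, which both types share, 6 members were higher, against 5.84% of all elements, with Neurod4 -1886 at 1.14 (SE 0.10, adjusted p = 0.000136).

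From p2 to pMN, 2 members were higher, against 1.67% of all elements, and 0 were lower, against 1.73% of all. Neurod4 +20584 was at 84.8, 88.3 and 91.0 (10 nM) and 52.5, 67.9 and 50.7 (100 nM) in p2 and at 172, 181, 175 and 184 in pMN, which did not overlap (1.20, SE 0.17, adjusted p = 0.00082). Atoh1 -248957 was at 5.52 ± 3.07 in p2 and 26.5 ± 8.18 in pMN (1.30, SE 0.21, adjusted p = 0.00187). Without replicate 2, and within 100 nM, limma called 0 of the members and 0 of all 111638 elements, so nothing particular to these loci is read from it, and 15 and 11 members had an unadjusted p under 0.05. The postmitotic neuron list, which includes the motor neuron genes Isl1 and Mnx1, summed to 4379 to 7556 in p2 and 6491 to 7373 in pMN.

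Between p0-1 and pMN, 9 members were higher in pMN, 15.0%, against 8.50% of all elements, and 0 were lower, against 2.66% of all. They were 5 at Neurod4 and 4 at Atoh1. Neurod4 +20584 had the largest VST difference, at 23.5 and 22.8 (0 nM) and 31.3, 25.6 and 39.7 (10 nM) in p0-1, so that its lowest pMN sample was over 4 times the highest p0-1 sample (2.25, SE 0.16, adjusted p = 5.57e-06). These types share no SAG concentration, and type and concentration cannot be told apart. The postmitotic neuron sum, which includes the motor neuron genes Isl1 and Mnx1, was 3850 to 5376 in p0-1, below all pMN samples, and its part was not tested. The count was 10, 3 and 5 without replicate 1, 2 and 3, against 8.75%, 3.09% and 5.75% of all elements higher.

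By the unpaired limma fit, SAG concentration within a type left the loci with 0 called members at day 5. These fits had 3 samples against 3 in p0-1 and p2, and 3 at 100 nM against 2 at 500 nM in pMN and p3. The groups were smaller than in the pooled comparisons between types. Same-numbered samples deviated together, with a median correlation of 0.36 to 0.45, which this fit leaves out. The share of all elements called was 0.00269% in p0-1 between 0 and 10 nM, 0% in p2 between 10 and 100 nM, and 0% in pMN and 0% in p3 between 100 and 500 nM. By the same limma fit 15, 13, 3 and 2 members had an unadjusted p under 0.05. In p0-1, where all 3 samples at 10 nM were above all 3 at 0 nM, Neurog3 +17034 was at 947 ± 127 against 542 ± 83.0 (0.79, SE 0.13, adjusted p = 0.0411). In p2, Neurod4 -7948 was at 67.3 ± 17.6 at 100 nM and 186 ± 96.8 at 10 nM, without overlap, and differed by -1.21 (SE 0.35, adjusted p = 0.376). With the replicate number as a block, which fits the pairing of the samples in these labels, the same difference had an SE of 0.15 and an adjusted p of 5.74e-05. It was the 1 member called, and the share of all elements called under the block is not given here. Without replicate 3 it was again the 1 member called, where 0.593% of all elements were lower and 0.0170% higher. At day 6 the p0-1 samples split by concentration at Neurog2 -5902, with 2028 and 2044 at 0 nM and 4236, 4089 and 3989 at 10 nM, a gap that was noticed in the values and not tested.

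Other genes of the pathway were described by all their elements. Of 89 elements of the related bHLH factors, 37 were lower and 6 higher in p3 than in pMN at day 6, 41.6% and 6.74%, where 13.6% of all elements were lower and 11.8% higher. These include Olig2, the motor neuron progenitor factor, with 12 of 16 lower, Olig1 with 7 of 11, and Nhlh1 and Nhlh2, which are expressed in newly born neurons, with 3 of 5 each. The Olig2 gene encodes a protein used in the sort. At Nhlh1 the element nearest the TSS differed by -1.76 (SE 0.16, adjusted p = 7.72e-06) and at Nhlh2 by -1.17 (SE 0.13, adjusted p = 2.79e-05). Of 72 elements of genes known as proneural targets, 11 were lower and 1 higher, 15.3% and 1.39%, so that the lower share was close to that of all elements, with 3 of 5 lower at Dll1, a Notch ligand, and 3 of 15 at Gadd45g. Of 29 elements of the Id inhibitors 8 were lower and 1 higher, 27.6% and 3.45%, of which Id4 had 6 of 10 lower. The E-protein partners were the exception, with 12 of 60 higher and 4 lower, 20.0% and 6.67%, and 10 of the higher ones at Tcf4.

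From day 4 to day 6 more of the target elements opened than closed. Of the 72, 11, 21, 21 and 16 were higher in p0-1, p2, pMN and p3, and 1, 0, 0 and 0 lower. The higher ones were 15.3%, 29.2%, 29.2% and 22.2%, against 13.3%, 16.1%, 15.8% and 16.6% of all elements, so that in p0-1 the share was close to that of all elements. In pMN the element nearest the TSS rose by 1.20 (SE 0.12) at Mfng, a modifier of Notch, and differed by 0.99 (SE 0.12) at Cbfa2t3 and 0.94 (SE 0.06) at Hes6, both under the limit of 1. The related bHLH factors had 16, 23, 27 and 21 of 89 higher and 9, 7, 7 and 6 lower. The higher ones were 18.0%, 25.8%, 30.3% and 23.6%, and the lower ones 10.1%, 7.87%, 7.87% and 6.74%, against 8.17%, 10.0%, 9.74% and 9.20% of all elements lower. At Nhlh1 the element nearest the TSS rose by 3.00 (SE 0.15) in pMN. Between p0-1 and p2 at day 6, 11 target elements were higher, 15.3%, against 4.95% of all elements, and 0 were lower, against 0.347%.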

How the data were processed

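Open chromatin was measured by CaTS-ATAC in 67 samples. The authors ran nf-core/atacseq with MACS peaks on mm10, merged them into consensus elements, counted reads, and deposited log2-scale values after DESeq2's variance-stabilizing transformation, with a HOMER annotation of the nearest TSS. Of 133549 annotated elements, 21911 are not in the value table. Depth was 9298160 to 29985325 reads in elements per sample (median 20254011), which limits elements with few reads. Inverting the transformation gave normalized counts, and under 1000 reads 100% of values were whole reads within 1e-6.

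Groups came from the sample titles. Differences were fitted with limma 3.58.1 (R 4.3.3, trended variance, two-sided, Benjamini-Hochberg over all 111638 elements) and calls needed a size over 1 with an adjusted p under 0.01. The fits were tested on simulated data. Tables and figures used python 3.11.15, pandas 2.3.3, numpy 2.4.6 and matplotlib 3.10.9.

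For each gene the text names the element nearest the TSS, the other element with the highest mean, the one with the largest range over 25 conditions, and for each comparison the called members with the largest differences in each direction. Neurod4 -13611, Atoh1 -301315 and the elements named only in the closing section were named after their values were seen. The members and lists were chosen with earlier results of these data known. Some list genes and positions are not reported here.

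Replicate numbers are those of the titles, which differ from the descriptions in 15 samples. Same-numbered samples deviated together, with every pair's correlation over 0.1, in the 4 comparisons between types at day 6 (median 0.40 to 0.50), in the SAG comparisons and in pMN from day 4 to day 6, so the pairing was fitted as an alternative. Alternatives were a size over 2, a mean over 100 normalized counts, averaging over SAG concentrations, centering, limma's voom, a 2-fold rule, leaving out each replicate and, added after the values were seen, fits within 1 SAG concentration. The 59 pairs of replicates differed by more than counting error. All elements lay within the ends of the GRCm38 chromosomes read for sequence.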

Additional observations from a re-analysis of the deposited data

Results flagged for a closer look

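In 3 of 72 groups of 4 to 10 samples, 1 sample stood apart in the summed level of a locus by Dixon's test, and chance gives about 1 in 20 groups. For Neurog1 the sample of p0-1 at day 4 with 10 nM SAG, replicate 3, was at 1753 normalized counts, and the other 5 were between 927 and 1202. In p3 at day 4 with 500 nM SAG, replicate 1 was at 610.4, and the other 4 were between 814 and 894. For Neurog3 in p2 at day 5 with 10 nM SAG, replicate 3 was at 2125, and the others were between 1706 and 1839. The p0-1 sample above also stood apart beyond this locus. With its replicate 1 it had the largest chi-square per degree of freedom of the 59 replicate pairs, 19.6. With replicate 2 the value was 11.3, and between replicates 1 and 2 it was 7.78. This sample is part of all p0-1 levels of day 4.

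The change from day 4 to day 6 differed between p3 and pMN in 12 members by the interaction term of the limma fit. It was higher in p3 in 6 and lower in 6, 10.0% of the members each, against 7.61% and 5.99% of all elements. The term is given here as the change in p3 minus that in pMN on the VST scale. It was -1.06 at Neurog1 -7319, -1.15 at Neurog2 -5902, -1.50 at Neurog2 +20169 and -1.57 at Neurod1 -2679. At Neurog3 +13163 it was 1.09, and at Neurod4 -1886 it was 1.40. Atoh1 had members on both sides, with -1.14 at Atoh1 -248957 and -1.64 at Atoh1 +70407, and with 1.04 at Atoh1 -301315, 1.65 at Atoh1 -238400, 1.56 at Atoh1 -122980 and 1.15 at Atoh1 -111316. What sets these apart was not tested.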

How the results depend on the processing

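Counts are of members called, out of 60 unless another number is given. Where no share of all elements stands beside a count, nothing particular to these loci is read from it. With a size over 2, they were 10, 14, 15 and 9 from NMPs to p0-1, p2, pMN and p3, 2, 5, 5 and 6 from day 4 to day 6 in the same order, 4 for p3 against pMN at day 6 and 1 at day 4, 0 for pMN against p2, 0 for p2 against p0-1, 1 for pMN against p0-1, and 0 for the interaction of day with type, by construction of the stricter limit. Among elements with a mean over 100 they were 10, 10, 11 and 8, then 8, 10, 14 and 8. There p3 against pMN gave 13 and 7 at days 6 and 4, pMN against p2 gave 1, p2 against p0-1 gave 3 and the interaction gave 5. Fewer elements were tested, 24 of the 60 members and 31744 of all 111638 elements. Averaging over SAG concentrations left fewer values per group. The counts were then 17 for p3 against pMN at day 6, 0 for pMN against p2 and 3 for p2 against p0-1. They were 5 for pMN against p0-1 and 4 for the interaction. In that order, 7.14%, 0.00179%, 1.91%, 4.17% and 2.12% of all elements were higher, and 9.19%, 0%, 0.0806%, 1.03% and 1.94% lower. With samples centered on their medians p2 against p0-1 gave 3; the cause was not tested. Within 1 SAG concentration p3 against pMN at day 6 gave 14 and 10, and pMN against p2 gave 0, with fewer samples. Leaving out 1 replicate gave 0 to 3 for pMN against p2, 0 to 8 for p2 against p0-1, 3 to 10 for pMN against p0-1, 5 to 7 for the interaction and 0 to 1 for SAG in p2.

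With the replicate block, SAG in p2 gave 1 call, and the pairing left every other count within 1.5 times. Of the elements named by comparison, 2 lost their call under it, Neurod1 -2679 in pMN (0.99) and Atoh1 -280135 in p3 (0.76, adjusted p = 0.0113), both from day 4 to day 6. No named element changed direction under any alternative run, and 154 of 1287 values fell below the call, 84 of them with a size over 2. Centering moved the median of all elements by -0.17 to -0.24 in the comparisons with NMPs, by -0.15 in p3 from day 4 to day 6, and by -0.14 and -0.11 for p2 and pMN against p0-1.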
